A study of Mus musculus with 11 samples.

Results

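The BCL2 family holds the genes that decide at the mitochondrion whether a T cell survives, and 10 of its members were followed across 4 populations of kidney T cells. The members were taken by name from the deposited count table and comprised the anti-apoptotic genes Bcl2, Bcl2l1 and Mcl1, the BH3-only genes Bcl2l11, Pmaip1, Bbc3, Bid and Bad, and the effector genes Bak1 and Bax. All 10 were found among the 46078 genes of the table, and all 10 were among the 16365 genes that passed the filter on low counts.

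The cells came from wild-type mice in which glomerulonephritis was set off by sheep globulin against basement membrane, given at a low dose after immunisation with recombinant mouse MPO (myeloperoxidase, a target of ANCA autoantibodies). Kidneys were taken 21 days later, and T cells were sorted on CD127, the alpha chain of the IL-7 receptor, and PD-1, an inhibitory receptor induced by antigen. The groups were CD4+CD127-PD-1+ (n = 2), CD4+CD127+PD-1- (n = 3), CD8+CD127-PD-1+ (n = 3) and CD8+CD127+PD-1- (n = 3). Every group carried the disease model, no untreated animals are among the samples, and the labels give neither age nor sex. The cells of 3 mice were pooled for each sort, so replicates are pools, and CD4+CD127-PD-1+ has fewer libraries because of a quality failure that the labels record.

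As background, BCL-2, BCL-XL (from Bcl2l1) and MCL-1 keep the mitochondrial outer membrane intact by holding the killer proteins of the family in check. BH3-only proteins such as BIM (from Bcl2l11), NOXA (Pmaip1) and PUMA (Bbc3) sense stress or the loss of growth factors and neutralise these guardians, after which BAX and BAK form the pores that release cytochrome c. In resting T cells, IL-7 acting through CD127 and STAT5 maintains BCL-2, whereas activated T cells are known to draw on BCL-XL and MCL-1, and FOXO factors can drive Bcl2l11 and Bbc3 when growth factor signals are lost.

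The promoters of Bcl2 and Bcl2l1, which moved in opposite directions below, and those of Bcl2l11 and Bbc3, which hold a FOXO motif, show the regulatory sequence around this network. The 250 bases before the start are given 5′ to 3′ on the gene's strand, from RefSeq on GRCm38.p6, with motif matches in capitals.
Bcl2 (chr1:106714291-106714540, minus strand): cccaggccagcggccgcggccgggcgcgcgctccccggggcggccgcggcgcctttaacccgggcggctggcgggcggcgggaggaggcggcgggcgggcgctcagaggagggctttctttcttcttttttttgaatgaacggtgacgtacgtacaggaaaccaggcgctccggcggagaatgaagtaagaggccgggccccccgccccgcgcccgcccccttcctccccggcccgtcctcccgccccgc
Bcl2l1 (chr2:152831729-152831978, minus strand, the most upstream of 3 starts): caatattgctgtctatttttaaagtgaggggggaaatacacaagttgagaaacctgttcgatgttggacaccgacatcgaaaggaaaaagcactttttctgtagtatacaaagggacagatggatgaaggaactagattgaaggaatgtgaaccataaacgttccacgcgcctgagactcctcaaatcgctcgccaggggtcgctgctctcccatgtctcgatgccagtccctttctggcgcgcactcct
Bcl2l11 (chr2:128125788-128126037, plus strand, the upstream of 2 starts): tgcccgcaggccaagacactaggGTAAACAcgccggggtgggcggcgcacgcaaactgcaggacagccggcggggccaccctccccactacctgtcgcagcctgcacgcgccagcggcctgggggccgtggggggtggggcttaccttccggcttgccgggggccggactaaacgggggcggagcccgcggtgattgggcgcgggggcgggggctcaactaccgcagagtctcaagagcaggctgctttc
Bbc3 (chr7:16310011-16310260, plus strand, the middle of 3 starts): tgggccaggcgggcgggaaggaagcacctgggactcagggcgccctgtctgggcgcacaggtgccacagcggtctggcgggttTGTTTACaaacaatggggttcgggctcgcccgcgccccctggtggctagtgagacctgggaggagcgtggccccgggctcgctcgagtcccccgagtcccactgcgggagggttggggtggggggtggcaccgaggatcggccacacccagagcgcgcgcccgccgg

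Both strands of the 15 windows that RefSeq gives for 9 of the members were searched for GTAAACA (FOXO) and for the palindrome TTCNNNGAA (STAT). The FOXO letters occurred at bases -227 to -221 of Bcl2l11 and, as the reverse complement TGTTTAC, at -167 to -161 of Bbc3, counted from -1 at the base before the start. Of all 32851 promoter windows, 3.17% held the FOXO letters and 7.02% the STAT letters. The STAT letters were in none of the 15 windows, which says only that these letters are not in these stretches.

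Library totals ran from 10572505 to 16057310 counts, and Il7r (13.8 to 27.2 CPM in the CD127- libraries, 329 to 455 CPM in the CD127+ libraries), Pdcd1, Cd4 and Cd8a followed the labels. CPM are counts relative to library totals after trimmed-mean scaling. The 9 T cell markers summed to 989 to 1641 CPM in the CD127-PD-1+ libraries and to 1207 to 1567 CPM in the CD127+PD-1- libraries, and none of the 9 was called in either lineage. Genes of other cell types moved with the sort state. All 14 macrophage and monocyte markers were higher in the CD127-PD-1+ population of both lineages, at sums of 1315 to 2737 CPM in CD4+CD127-PD-1+, 66.3 to 144 CPM in CD4+CD127+PD-1-, 1359 to 2639 CPM in CD8+CD127-PD-1+ and 114 to 177 CPM in CD8+CD127+PD-1- libraries, and none was at 0 throughout a group. The 8 plasmacytoid dendritic cell markers, of which 5 were lower in CD4 and 3 in CD8 cells, summed to 136 to 483, 774 to 1635, 244 to 313 and 618 to 1250 CPM in the same order of groups. The 12 cell cycle genes had 9 higher in CD4 cells (sums of 1186 to 2078 CPM in CD127-PD-1+ and 435 to 588 CPM in CD127+PD-1- libraries) and 4 higher in CD8 cells (1523 to 2060 CPM in CD127-PD-1+ and 551 to 1561 CPM in CD127+PD-1- libraries). Of 8 neutrophil markers 6 were tested, of which 1 was higher in CD4 cells (23.9 to 35.4 CPM in CD127-PD-1+ and 3.61 to 5.397 CPM in CD127+PD-1- libraries, where Elane and Camp were at 0) and 4 in CD8 cells (46.1 to 301 CPM in CD127-PD-1+ and 2.70 to 25.3 CPM in CD127+PD-1- libraries). Of 7 B and plasma cell markers, 1 was lower in CD4 cells, where the sums overlapped (11.8 to 69.9 CPM in CD127-PD-1+ and 14.5 to 43.4 CPM in CD127+PD-1- libraries). The median log2 fold change of this list in CD4 cells went the other way, at 0.62. In CD8 cells 3 were higher (90.2 to 217 CPM in CD127-PD-1+ and 15.2 to 53.2 CPM in CD127+PD-1- libraries). Of 8 tubule and endothelium markers 7 were tested, of which 2 were lower in CD4 cells (75.7 to 101 CPM in CD127-PD-1+ and 150 to 222 CPM in CD127+PD-1- libraries). In CD8 cells 2 were lower as well, with sums that overlapped (45.6 to 71.7 CPM in CD127-PD-1+ and 67.5 to 252 CPM in CD127+PD-1- libraries). Aqp1 was at 0 in the CD4+CD127-PD-1+ libraries. Of 7 NK and innate lymphoid markers, none was called in CD4 cells (176 to 197 CPM in CD127-PD-1+ and 186 to 235 CPM in CD127+PD-1- libraries) and 1 was higher in CD8 cells (208 to 273 CPM in CD127-PD-1+ and 146 to 215 CPM in CD127+PD-1- libraries). Mitochondrial ribosomal RNA took 35.7% to 40.8% of counts in CD8+CD127-PD-1+ libraries and 28.1% to 31.8% in all others. The part of these shifts in the results below was not tested, and in sorted bulk RNA fewer cells of a type and less RNA per cell cannot be told apart.

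**Figure D1:**
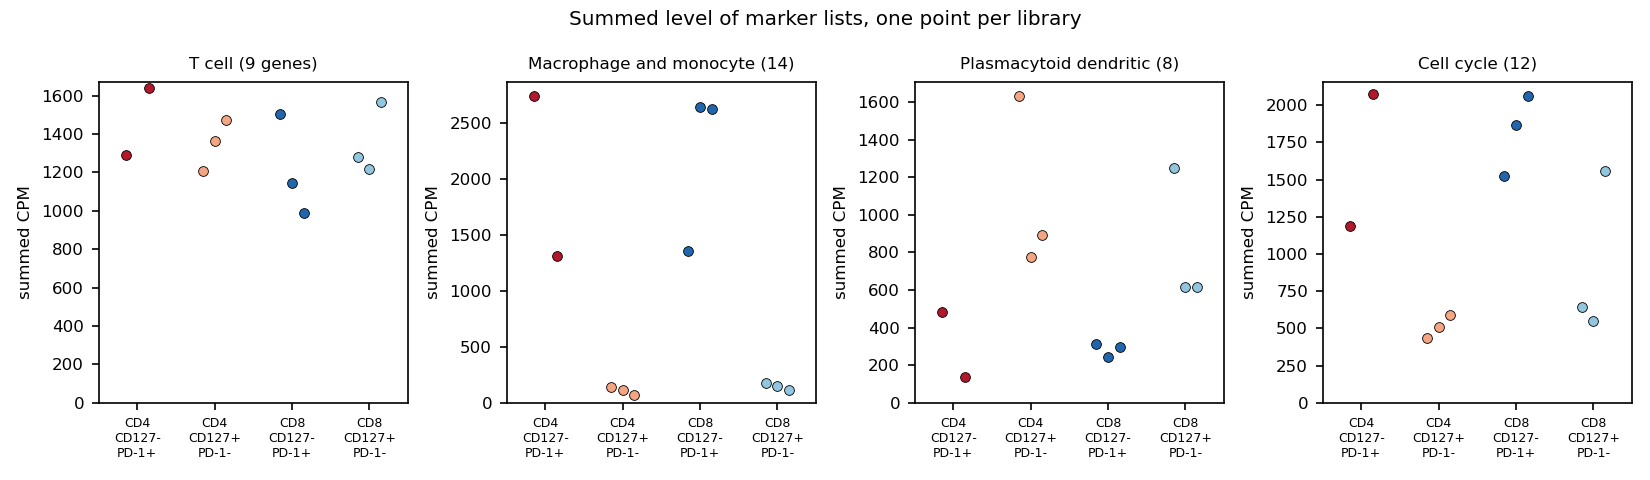
Summed CPM of 4 marker lists, with a point for each library and the 4 sorted groups along the horizontal axis. Macrophage and monocyte genes reached 1315 to 2737 CPM in CD127-PD-1+ libraries and at most 177 CPM in CD127+PD-1- libraries, while the T cell list stayed between 989 and 1641 CPM.

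Compared per kilobase of exon, Mcl1 was the most abundant member in all 11 libraries, at 95.5 to 139 CPM per kb. Pmaip1 came next at 26.1 to 69.7 CPM per kb. Bcl2l11 (9.31 to 19.2), Bcl2 (4.97 to 34.0) and Bak1 (7.27 to 18.8 CPM per kb) formed a middle tier. Bax, Bid, Bcl2l1, Bbc3 and Bad lay lower, with medians of 5.95, 2.65, 2.15, 1.90 and 1.30 CPM per kb over the 11 libraries. Within the middle tier the order depended on the sort state. Bcl2 stood above Bcl2l11 in CD4+CD127+PD-1- cells (mean 18.6 and 12.1 CPM per kb) and in CD8+CD127+PD-1- cells (28.7 and 17.6 CPM per kb), with no overlap between the libraries of each group. In CD4+CD127-PD-1+ cells Bcl2 averaged 8.66 CPM per kb and lay below Bcl2l11 (15.8) and Bak1 (15.3), and in CD8+CD127-PD-1+ cells it averaged 10.3 CPM per kb and lay below Bak1 (17.1) and Bcl2l11 (15.8). Bak1 and Bcl2l11 overlapped each other in both CD127-PD-1+ groups.

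**Figure D2:**
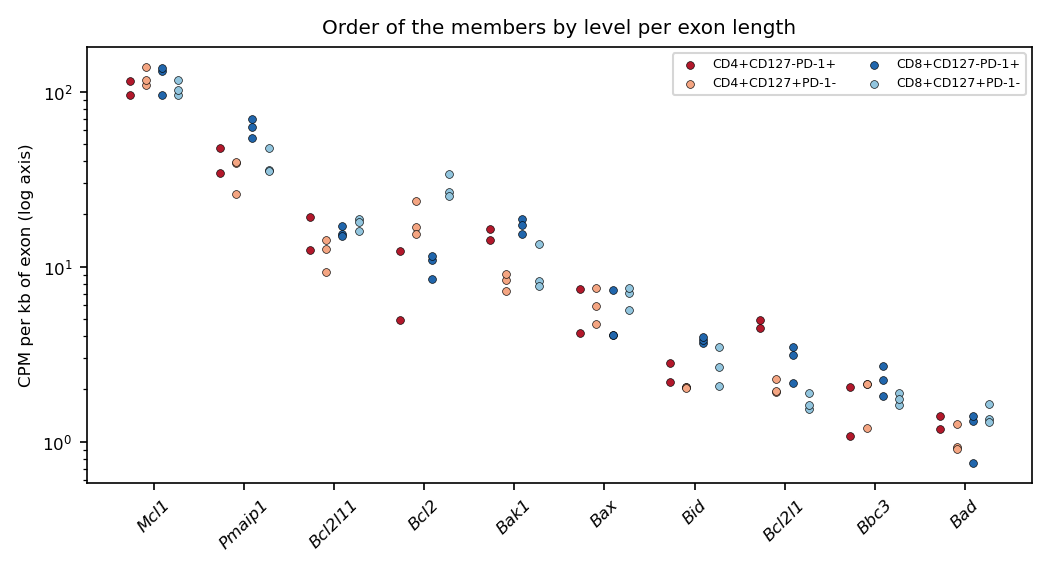
CPM per kilobase of exon on a log axis for the 10 members, ordered by their median over the 11 libraries, with a point for each library coloured by group. Mcl1 lies above all others at 95.5 to 139 CPM per kb, and Bcl2 is the member of the middle tier that spreads most, from 4.97 to 34.0 CPM per kb.

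In kidney CD4 cells the CD127-PD-1+ population had less Bcl2 and more Bcl2l1 and Bak1 than the CD127+PD-1- population. In CD8 cells the same genes moved the same way, and Pmaip1 was higher as well. By edgeR's quasi-likelihood test, 2 members were called higher and 1 lower in CD4 cells, against 6.81% of all tested genes called higher and 4.87% called lower (11.7% in either direction). In CD8 cells 3 members were called higher and 1 lower, against 9.05% and 6.56% of all tested genes (15.6% in either direction). Groups without overlap were common in this design, at 40.7% of all tested genes in the CD4 and 34.4% in the CD8 comparison. The median log2 fold change of the 10 members was 0.26 in CD4 and 0.28 in CD8 cells, beside 0.02 and 0.01 over all tested genes.

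**Figure D3:**
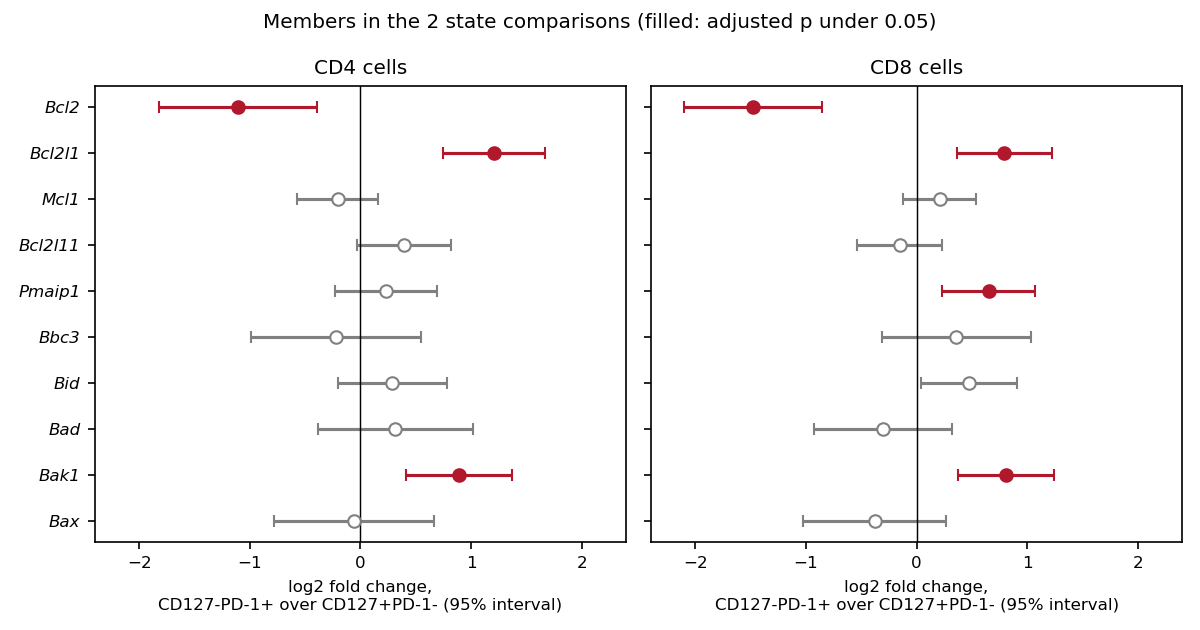
Log2 fold change of each member, CD127-PD-1+ over CD127+PD-1-, with its 95% interval, in CD4 cells (left) and CD8 cells (right); filled points have an adjusted p under 0.05. Bcl2 lies left of 0 at -1.11 and -1.48, while Bcl2l1 (1.21 and 0.79) and Bak1 (0.89 and 0.81) lie right of 0.

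Bcl2 (ENSMUSG00000057329, chromosome 1, 106538178 to 106714274, minus strand, GRCm38), the survival gene that IL-7 maintains in resting T cells, was lower in both CD127-PD-1+ populations. It measured 113 and 45.5 CPM in CD4+CD127-PD-1+ libraries, against 154, 218 and 141 CPM in CD4+CD127+PD-1- libraries. The CD4 groups did not overlap, but the CD4+CD127-PD-1+ libraries lay far apart. The difference was 2.15-fold (log2 fold change -1.11, SE 0.33, adjusted p = 0.0478). The CD8 libraries held 100, 77.4 and 105 CPM in CD127-PD-1+ libraries, against 246, 311 and 231 CPM in CD127+PD-1- libraries, which left a wide gap between the groups. The difference was 2.78-fold (-1.48, SE 0.29, adjusted p = 0.00516).

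The CD4 result for Bcl2 rested on few libraries. Without CD4+CD127-PD-1+ replicate 2 the log2 fold change was -0.59 (adjusted p = 0.229), and without replicate 1 it was -1.91 (adjusted p = 0.00545). Leaving out CD4+CD127+PD-1- replicates 1, 2 or 3 also ended the call (adjusted p = 0.0821, 0.152 and 0.0599), as did fits without CD8+CD127-PD-1+ replicates 1, 2 or 3 (0.0623, 0.0597 and 0.0631) or CD8+CD127+PD-1- replicates 1 or 2 (0.0625 and 0.0530), and a fit of the compared groups only (0.107). In CD8 cells Bcl2 was called under all 21 alternatives, at log2 fold changes of -1.58 to -1.34. The CD4+CD127-PD-1+ library with more Bcl2, replicate 1, also had more macrophage (2737 against 1315 CPM) and plasmacytoid dendritic cell RNA (483 against 136 CPM) than replicate 2, and whether these cells contributed Bcl2 was not tested. D630008O14Rik, an antisense gene that shares 558 exon bases with Bcl2, measured 4.30 ± 3.05 CPM in the CD127-PD-1+ (SD, n = 2) and 12.7 ± 4.97 CPM in the CD127+PD-1- libraries (n = 3) of the CD4 lineage (log2 fold change -1.57, adjusted p = 0.0498 by edgeR). In the CD8 lineage it measured 5.42 ± 1.35 CPM in CD127-PD-1+ and 18.9 ± 5.67 CPM in CD127+PD-1- libraries (n = 3 each; -1.80, adjusted p = 0.0108 by edgeR). No source used here gives the strand setting, so reads of this gene and of Bcl2 cannot be told apart where they overlap.

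Bcl2l1 (ENSMUSG00000007659, chromosome 2, 152780668 to 152831728, minus strand), which encodes BCL-XL and a shorter pro-apoptotic splice form that counts per gene do not separate, was higher in both CD127-PD-1+ populations. It measured 22.9 and 20.6 CPM in CD4+CD127-PD-1+ libraries, against 8.79, 8.91 and 10.5 CPM in CD4+CD127+PD-1- libraries. The CD4+CD127-PD-1+ libraries were the highest of all 11, and the difference was 2.31-fold (log2 fold change 1.21, SE 0.21, adjusted p = 0.00470). CD8 libraries held 9.86, 14.4 and 15.8 CPM in CD127-PD-1+ libraries, against 7.005, 7.40 and 8.73 CPM in CD127+PD-1- libraries. These groups did not overlap either, though replicate 1 of CD8+CD127-PD-1+ stood close to the CD127+PD-1- libraries, and the difference was 1.73-fold (0.79, SE 0.20, adjusted p = 0.0179).

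The CD4 call for Bcl2l1 held under all 21 alternatives (1.13 to 1.32). The CD8 call was lost without CD8+CD127-PD-1+ replicates 2 or 3 (adjusted p = 0.0612 and 0.0814) and without CD8+CD127+PD-1- replicates 1 or 2 (0.0647 and 0.0618). Macrophage RNA ran alongside Bcl2l1 within the CD8+CD127-PD-1+ libraries. Its summed level was 1359 CPM in replicate 1, 2639 CPM in replicate 2 and 2625 CPM in replicate 3, and its part in the Bcl2l1 difference was not tested. In the CD4+CD127-PD-1+ libraries the macrophage sum was 2737 CPM in replicate 1 and 1315 CPM in replicate 2, while Bcl2l1 was nearly level.

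Mcl1 (ENSMUSG00000038612, chromosome 3, 95658788 to 95663176, plus strand), a short-lived guardian protein needed by lymphocytes at many stages, was not called between the sort states. It measured 393 and 326 CPM in CD4+CD127-PD-1+ libraries, against 371, 399 and 474 CPM in CD4+CD127+PD-1- libraries (log2 fold change -0.21, 95% interval -0.57 to 0.16). The CD8 values were 328, 446 and 468 CPM in CD127-PD-1+ libraries, against 328, 347 and 399 CPM in CD127+PD-1- libraries (0.21, -0.12 to 0.53). The groups overlapped in both lineages, and both intervals exclude a change of 1 on the log2 scale. Of the exon-length-corrected RNA of the anti-apoptotic members, Mcl1 made up 86.9% to 91.0% in CD4+CD127-PD-1+, 81.9% to 88.7% in CD4+CD127+PD-1-, 88.0% to 91.8% in CD8+CD127-PD-1+ and 74.1% to 81.2% in CD8+CD127+PD-1- libraries.

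**Figure D4:**
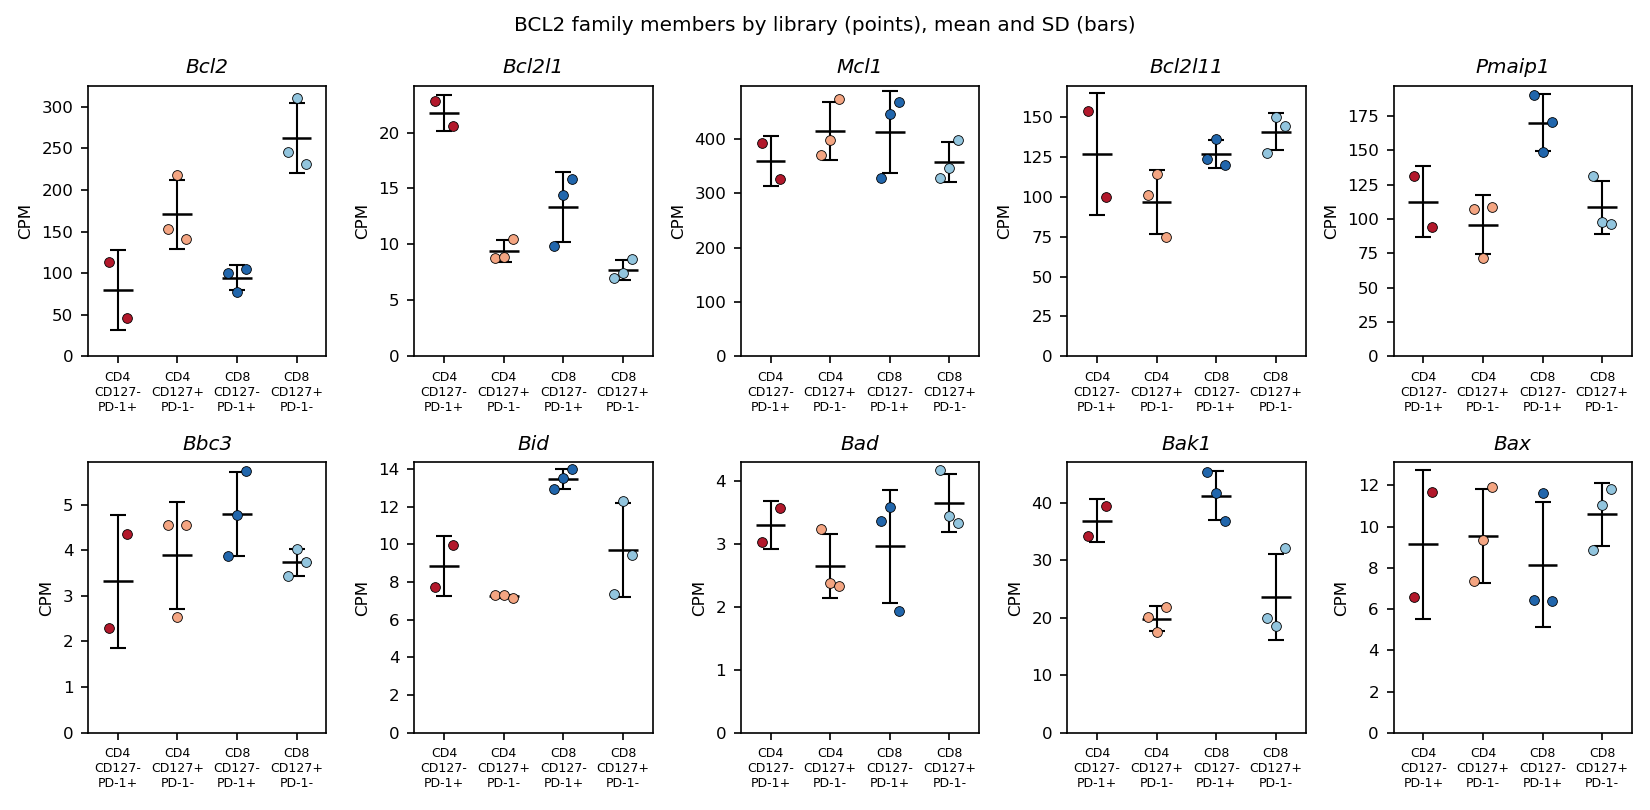
CPM of the 10 members in each library (points) with the mean and SD of each group (bars), each panel with its own linear axis from 0. Bcl2 is lower, and Bcl2l1 and Bak1 are higher, in the CD127-PD-1+ groups of both lineages, while Mcl1 overlaps between them.

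Ratios of counts within a library do not depend on how libraries are scaled. There were 4.95 and 2.21 Bcl2 counts per Bcl2l1 count in CD4+CD127-PD-1+ libraries, against 17.5, 24.4 and 13.4 in CD4+CD127+PD-1- libraries. In CD8 cells the ratio was 10.2, 5.37 and 6.64 in CD127-PD-1+ libraries and 35.1, 42.0 and 26.4 in CD127+PD-1- libraries. The groups did not overlap in either lineage. Bcl2 was lower and Bcl2l1 higher without overlap in both lineages, so their ratio could not have overlapped. Since the ratio is built from genes already tested, it is a description without a test. The ratios of Bcl2 to Bcl2l11 and of Bak1 to Bax, given below, did not overlap between the sort states in either lineage. Mcl1 to Pmaip1 overlapped between CD127-PD-1+ and CD127+PD-1- libraries in both. Mcl1 to Pmaip1 ran from 3.00 to 3.47 against 3.45 to 5.59 in CD4 cells, and from 1.72 to 2.99 against 2.51 to 4.15 in CD8 cells. Bcl2l1 to Bak1 overlapped in CD8 cells (0.218 to 0.431 against 0.271 to 0.398) and not in CD4 cells (0.521 to 0.668 against 0.436 to 0.509).

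**Figure D5:**
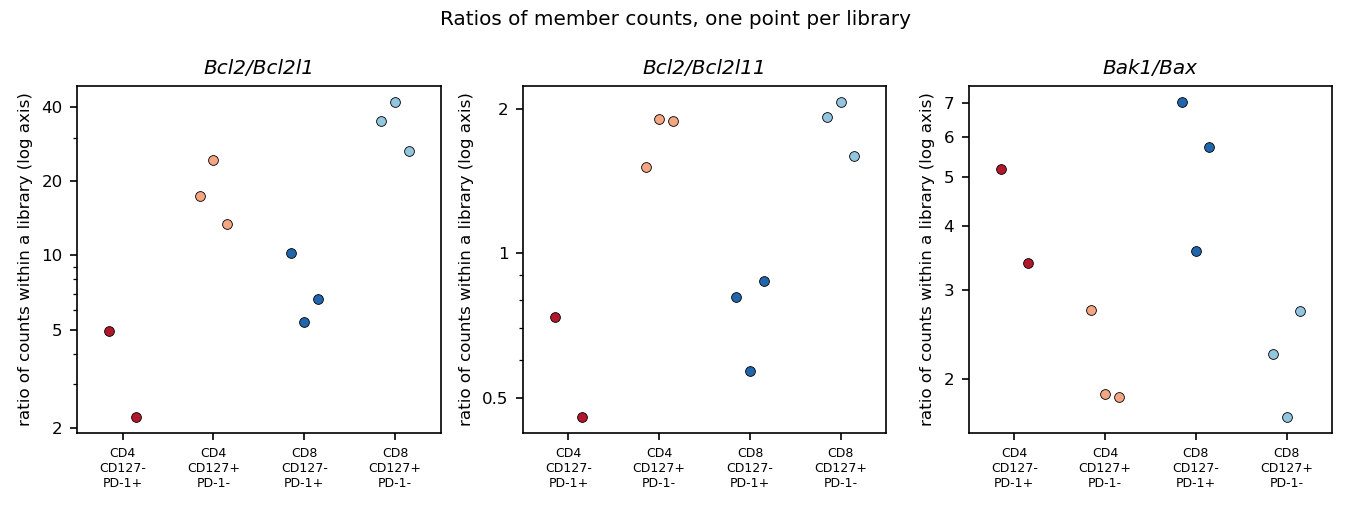
Ratio of counts of Bcl2 to Bcl2l1, Bcl2 to Bcl2l11 and Bak1 to Bax within each library, on log axes, by group. All 5 CD127-PD-1+ libraries have Bcl2 to Bcl2l11 ratios from 0.455 to 0.877, and all 6 CD127+PD-1- libraries have ratios from 1.52 to 2.07.

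Among the BH3-only genes, Bcl2l11 (ENSMUSG00000027381, chromosome 2, 128126038 to 128162547, plus strand), whose product BIM binds all the guardians and deletes T cells after growth factor loss, was not called. It measured 154 and 99.9 CPM in CD4+CD127-PD-1+ libraries, against 101, 114 and 74.7 CPM in CD4+CD127+PD-1- libraries (log2 fold change 0.39, 95% interval -0.04 to 0.82, adjusted p = 0.236 by edgeR). CD8 libraries held 124, 137 and 120 CPM in CD127-PD-1+ libraries, against 128, 150 and 145 CPM in CD127+PD-1- libraries (-0.15, -0.54 to 0.23, adjusted p = 0.621 by edgeR). The groups overlapped in both lineages. Counts of Bcl2 per count of Bcl2l11 were 0.735 and 0.455 in CD4+CD127-PD-1+ libraries, against 1.52, 1.91 and 1.88 in CD4+CD127+PD-1- libraries. In CD8 cells they were 0.811, 0.567 and 0.877 in CD127-PD-1+ libraries, against 1.92, 2.07 and 1.60 in CD127+PD-1- libraries.

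Pmaip1 (ENSMUSG00000024521, chromosome 18), whose product NOXA binds mainly MCL-1, was the only BH3-only member called, and it was called in CD8 cells. It measured 190, 149 and 171 CPM in CD8+CD127-PD-1+ libraries, against 131, 97.7 and 96.3 CPM in CD8+CD127+PD-1- libraries. The groups did not overlap, and the difference was 1.57-fold (log2 fold change 0.65, SE 0.19, adjusted p = 0.0392). The call was lost with upper quartile scaling (adjusted p = 0.0687) and without any of the 3 CD8+CD127-PD-1+ replicates (0.114, 0.0517 and 0.0971 without replicates 1, 2 and 3). Fits without CD8+CD127+PD-1- replicates 2 or 3 (0.134 and 0.0983), or CD4+CD127+PD-1- replicate 1 (0.0522), did not call it either. In CD4 cells it measured 131 and 94.2 CPM in CD127-PD-1+ libraries, against 108, 71.3 and 109 CPM in CD127+PD-1- libraries, which overlapped (0.23, SE 0.21, adjusted p = 0.545). The difference between the lineages in this change was -0.42 (95% interval -1.05 to 0.21, adjusted p = 0.966 by edgeR), so a CD8-specific rise was not shown.

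The other BH3-only members were scarce, with the lowest count of any library at 25 for Bad and 33 for Bbc3. Bid (ENSMUSG00000004446), which links death receptors to mitochondria once caspase-8 cuts it, measured 12.9, 13.5 and 13.99 CPM in CD8+CD127-PD-1+ libraries, against 7.34, 12.3 and 9.42 CPM in CD8+CD127+PD-1- libraries. The groups did not overlap, but the change did not pass the threshold (log2 fold change 0.48, 95% interval 0.04 to 0.91, adjusted p = 0.130). In CD4 cells, whose groups did not overlap either, Bid stood at 0.29 (-0.20 to 0.78). Bbc3 (ENSMUSG00000002083), the source of PUMA, measured 2.29 to 4.35 CPM in CD4+CD127-PD-1+, 2.53 to 4.56 CPM in CD4+CD127+PD-1-, 3.87 to 5.73 CPM in CD8+CD127-PD-1+ and 3.44 to 4.03 CPM in CD8+CD127+PD-1- libraries. Bad (ENSMUSG00000024959), which is held inactive by phosphorylation, ranged from 1.93 to 4.18 CPM over all 11 libraries. Neither gene was called, and their intervals reached from -0.99 to 0.55 and from -0.39 to 1.02 in CD4 cells and from -0.32 to 1.03 and from -0.93 to 0.32 in CD8 cells. In exon bases, Bad shares 20.5% with Gpr137 and Bid shares 17.7% with Bcl2l13. Gpr137 measured 1.08 to 2.86 CPM over the libraries, and Bcl2l13, at 16.3 to 25.4 CPM, stood above Bid. Bax, described below, shares 12.2% with Gm45808. The part of shared bases in these counts was not tested.

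Of the pore-forming effectors, Bak1 was called in both lineages and Bax in neither; a difference between their changes was not tested. Bak1 (ENSMUSG00000057789, chromosome 17, 27019810 to 27029009, minus strand) measured 34.2 and 39.5 CPM in CD4+CD127-PD-1+ libraries, against 20.1, 17.5 and 21.96 CPM in CD4+CD127+PD-1- libraries. The groups did not overlap, and the difference was 1.86-fold (log2 fold change 0.89, SE 0.22, adjusted p = 0.0230). The CD8 values were 45.3, 41.7 and 36.8 CPM in CD127-PD-1+ libraries, against 19.9, 18.6 and 32.2 CPM in CD127+PD-1- libraries. Replicate 3 of CD8+CD127+PD-1- came near the CD127-PD-1+ libraries without reaching them, and the difference was 1.75-fold (0.81, SE 0.20, adjusted p = 0.0182).

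The Bak1 call in CD4 cells was lost without CD4+CD127-PD-1+ replicates 1 or 2 (adjusted p = 0.0590 and 0.120), or when CD4+CD127+PD-1- replicates 1 or 2 were left out (0.0617 and 0.0843). In CD8 cells it was lost without CD8+CD127-PD-1+ replicates 1 or 2 (0.0558 and 0.0522) and without CD8+CD127+PD-1- replicates 1 or 2 (0.0685 and 0.0728). The CD8+CD127-PD-1+ library with the least macrophage RNA, replicate 1, had the most Bak1. Cell cycle genes summed to 643, 551 and 1561 CPM in CD8+CD127+PD-1- replicates 1, 2 and 3. They were highest in the replicate with the most Bak1, as in the CD4+CD127-PD-1+ and CD4+CD127+PD-1- groups. CD8+CD127-PD-1+ replicates 1, 2 and 3 had the reverse order. Cell cycle sums were 1523, 1867 and 2060 CPM there, and Bak1 was 45.3, 41.7 and 36.8 CPM. The part of macrophage and cell cycle RNA in the Bak1 difference was not tested. Ggnbp1, which overlaps exons of Bak1 on the other strand, measured 1.79 to 3.63 CPM.

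Bax (ENSMUSG00000003873, chromosome 7, 45461697 to 45466898, minus strand) was not called. It measured 6.59 and 11.7 CPM in CD4+CD127-PD-1+ libraries, against 7.38, 9.37 and 11.9 CPM in CD4+CD127+PD-1- libraries (log2 fold change -0.06, 95% interval -0.79 to 0.66). In CD8 cells it measured 6.43, 11.6 and 6.40 CPM in CD127-PD-1+ libraries, against 8.89, 11.1 and 11.9 CPM in CD127+PD-1- libraries (-0.38, -1.03 to 0.27). There were 5.19 and 3.38 Bak1 counts per Bax count in CD4+CD127-PD-1+ libraries, against 2.73, 1.87 and 1.84 in CD4+CD127+PD-1- libraries. In CD8 cells the ratio was 7.05, 3.58 and 5.74 in CD127-PD-1+ libraries, against 2.24, 1.68 and 2.72 in CD127+PD-1- libraries. The groups did not overlap in either lineage, and this too is a description without a test.

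Between the lineages the members stood as follows. In CD127-PD-1+ cells, CD4 against CD8, 2.44% of all tested genes were called in either direction (1.6% higher, 0.843% lower) and 27.8% did not overlap between the groups, and 0 members were called by edgeR, DESeq2 or limma-voom, with 3 of 10 at an unadjusted p under 0.05 (Bcl2l1, Pmaip1 and Bid), beside 2174 of the 16365 tested genes. Bcl2l1 stood at 0.70 there (95% interval 0.24 to 1.16, adjusted p = 0.134), and the CD4 libraries, at 22.9 and 20.6 CPM, lay above all CD8 libraries of that state. In CD127+PD-1- cells, CD4 against CD8, 4.42% of all genes were called (2.76% higher, 1.66% lower) and 22.8% did not overlap, and again 0 members by any of the 3 tools, with Bcl2 and Bcl2l11 at an unadjusted p under 0.05, beside 2892 of the 16365 tested genes. Bcl2 stood at -0.62 there (-1.23 to -0.01, adjusted p = 0.276) and Bcl2l11 at -0.54 (-0.93 to -0.16, adjusted p = 0.121), and for both genes each CD4+CD127+PD-1- library was below each CD8+CD127+PD-1- library. Without the filter on low counts, Bcl2l11 was called in that comparison (adjusted p = 0.0279).

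The state change itself was not shown to differ between CD4 and CD8 cells for any member. No member had an unadjusted p under 0.05 for that difference by edgeR, DESeq2 or limma-voom, beside 897 of the 16365 genes by edgeR, and only 1 gene of all tested (0.00611%), Nt5e, was called by edgeR, named here after its value was seen. The CD4 minus CD8 difference was 0.37 for Bcl2 (95% interval -0.55 to 1.29), 0.42 for Bcl2l1 (-0.22 to 1.05), 0.09 for Bak1 (-0.56 to 0.74), 0.54 for Bcl2l11 (-0.03 to 1.12) and -0.41 for Mcl1 (-0.90 to 0.08), on the log2 scale. These intervals are wide enough to hold differences of more than 1.5-fold in at least one direction.

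The calls in the further pathway lists stand beside the 11.7% of all tested genes called in CD4 and 15.6% in CD8 cells, and nothing particular to a list is read from them. Of 15 further BCL2 family genes 11 were tested, and 1 was higher in CD4 and 3 in CD8 cells, with none lower. The median log2 fold change of the 11 tested was 0.67 in CD4 and 0.65 in CD8 cells. Bcl2a1a, a copy of the A1 survival gene that activated lymphocytes and myeloid cells express, measured 1.69 ± 0.0891 CPM in CD4+CD127-PD-1+ (SD, n = 2) and 0.189 ± 0.210 CPM in CD4+CD127+PD-1- libraries (n = 3), at a log2 fold change of 3.06 (SE 0.74, adjusted p = 0.0207 by edgeR). In CD8 cells it measured 2.67 ± 0.231 against 0.367 ± 0.265 CPM (n = 3 each), at 2.82 (SE 0.62, adjusted p = 0.0101 by edgeR). Its near-identical copy Bcl2a1d was called in CD8 cells (1.51, SE 0.37, adjusted p = 0.0172 by edgeR) and not in CD4 cells (0.89, adjusted p = 0.168). A further copy, Bcl2a1b, was called neither in CD4 cells (0.67, adjusted p = 0.329 by edgeR) nor in CD8 cells (0.996, adjusted p = 0.0961). Reads may be split uncertainly between such copies. Bmf, a BH3-only gene, was called in CD8 cells (1.62, SE 0.49, adjusted p = 0.0448 by edgeR). In CD4 cells its change was of like size and just missed the threshold (1.76, SE 0.54, adjusted p = 0.0557 by edgeR). Macrophage and neutrophil markers moved with these genes, and their part was not tested. The CD4 call for Bcl2a1a was lost in a fit of the compared groups only (adjusted p = 0.0510), without CD4+CD127-PD-1+ replicates 1 or 2 (0.0727 and 0.0590), and when CD4+CD127+PD-1- replicate 2 was left out (0.0772). Bcl2a1d was not called without CD8+CD127-PD-1+ replicate 2 (0.0568) or CD8+CD127+PD-1- replicate 2 (0.0678). The CD8 call for Bmf was lost with upper quartile scaling (0.0564) and without any of the CD8+CD127-PD-1+ replicates (0.0851, 0.0870 and 0.112). It was also lost without CD8+CD127+PD-1- replicates 2 or 3 (0.123 and 0.102), or without CD4+CD127+PD-1- replicates 1 or 2 (0.0574 and 0.0622).

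Downstream of the mitochondrion, 17 of 18 caspase, apoptosome and inhibitor genes were tested, of which 1 was higher in CD4 and 3 in CD8 cells and none lower. The medians were 0.15 and 0.08 on the log2 scale. The CD4 gene was Birc5, an inhibitor family member that also serves mitosis (2.45, SE 0.51, adjusted p = 0.0110). In CD8 cells Htra2, a mitochondrial protease released in apoptosis, measured 13.9 ± 0.890 CPM in CD127-PD-1+ and 6.61 ± 0.715 CPM in CD127+PD-1- libraries (SD, n = 3 each; log2 fold change 1.07, adjusted p = 0.00433 by edgeR). Leaving out CD4+CD127-PD-1+ replicate 2 ended the Birc5 call (1.49, adjusted p = 0.123).

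Of 12 death receptor pathway genes, 2 were higher and 1 lower in CD4 cells, and 3 were higher and 2 lower in CD8 cells (list medians 0.27 and 0.17 on the log2 scale). Tnfrsf10b, which encodes the mouse receptor for TRAIL, was lower in both lineages. It measured 9.57 ± 0.507 CPM in CD4+CD127-PD-1+ (SD, n = 2) and 22.4 ± 2.86 CPM in CD4+CD127+PD-1- libraries (n = 3; log2 fold change -1.23, adjusted p = 0.00517 by edgeR). In CD8 cells it measured 2.59 ± 0.596 CPM in CD127-PD-1+ and 16.4 ± 2.86 CPM in CD127+PD-1- libraries (n = 3 each; -2.66, adjusted p = 3.22e-05 by edgeR). Tnfsf10, the gene of TRAIL itself, was higher in CD4 cells (1.11, SE 0.24, adjusted p = 0.0133), as was the TNF receptor gene Tnfrsf1b (0.73, SE 0.20, adjusted p = 0.0324). In CD8 cells Tnfrsf1a (0.92, SE 0.13, adjusted p = 0.000829) and Tnf (0.96, SE 0.16, adjusted p = 0.00207) were higher. The remaining called genes of the list, given here after their values were seen, were Tnfrsf1b (1.03) and Fas (-1.39), a death receptor gene, in CD8 cells. Leaving out CD4+CD127-PD-1+ replicate 1 ended the Tnfsf10 call (adjusted p = 0.104). The CD4 call for Tnfrsf1b was lost without CD4+CD127-PD-1+ replicates 1 or 2 (0.0639 and 0.179). It was also lost without CD4+CD127+PD-1- replicates 1 or 2 (0.0872 and 0.0959) or in a fit of the compared groups only (0.0575).

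Of 19 upstream regulators, 1 was higher and 7 were lower in each lineage, with list medians of -0.16 in CD4 and -0.19 in CD8 cells on the log2 scale. The higher ones, given here after their values were seen, were Il2rb, a receptor chain for IL-2 and IL-15, in CD4 cells (0.83) and Cdkn1a, a p53 target that halts the cell cycle, in CD8 cells (1.91). Il7r itself was lower by the design of the sort and is no finding. In CD4 cells Foxo1, a transcription factor of resting T cells that drives Il7r, measured 147 ± 19.2 CPM in CD127-PD-1+ (SD, n = 2) and 256 ± 7.97 CPM in CD127+PD-1- libraries (n = 3; log2 fold change -0.80, adjusted p = 0.00276 by edgeR). Stat5b, a transducer of the IL-7 signal, stood at -0.69 (SE 0.14, adjusted p = 0.00889), a call lost when CD4+CD127-PD-1+ replicate 1 was left out (-0.53, adjusted p = 0.0807). In CD8 cells Pim2, a survival kinase gene induced by cytokines, measured 13.9 ± 2.04 CPM in CD127-PD-1+ and 51.9 ± 5.18 CPM in CD127+PD-1- libraries (SD, n = 3 each; -1.90, adjusted p = 0.000214 by edgeR). Jak1, the kinase gene of the CD127 receptor complex, stood at -0.53 (SE 0.08, adjusted p = 0.00146). It was lower in CD4 cells too (-0.45, SE 0.09, adjusted p = 0.0105 by edgeR), given here after its value was seen.

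Outside the pathway, the genes whose log2 CPM followed Bcl2 most closely over the 11 libraries were Tcp11l2, Tdrp and Ppm1h (Pearson r = 0.97, 0.96 and 0.96), among 5774 genes of at least moderate abundance. For Bcl2l1 they were Tfe3, Epb4.1l2 and Eea1 (0.94, 0.94 and 0.94), and for Bcl2l11 they were Snapin, Tapbpl and Ganc (0.87, 0.85 and 0.83). The libraries share their sort groups and cell type makeup, so these values are descriptions of likeness.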

How the data were processed

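Libraries were made from 2 ng of total RNA by single primer isothermal amplification and read as 75-base single reads, per the labels. The deposited table holds raw counts per gene that the authors made with STAR and featureCounts on GRCm38, per the submitters' processing notes. The sources used here give no version, annotation release or strand setting. Of its columns 11 matched labelled samples, and 1 column without a label was not used. No 2 columns were identical.

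Counts were fitted in R 4.3.3 with edgeR 4.0.16 (filterByExpr, TMM scaling, quasi-likelihood test, a mean for each of 4 groups, 11 libraries), with Benjamini-Hochberg adjustment over all 16365 tested genes and a threshold of 0.05. The common biological coefficient of variation was 0.244. SE is the estimate over the square root of F. DESeq2 1.42.0 and limma 3.58.1 were alternatives. The fit was run on simulated counts with known changes, drawn independently with the same spread for every gene. Such counts hold no shared sorts and no mixed cell types. Exon lengths and positions are from GENCODE M21. The p-values measure spread between pools.

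The members and lists were chosen with earlier results of these data known. Named were all 10 members, the 3 called genes with the smallest p per list and state comparison, and the 3 genes most correlated with Bcl2, Bcl2l1 and Bcl2l11 at an average log2 CPM of at least 4; some genes that this rule names are not reported here.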

Additional observations from a re-analysis of the deposited data

How the results depend on the processing

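The 21 alternatives changed scaling, filter, tool, the libraries in the fit or the block. Bcl2 in CD8 cells and Bcl2l1 in CD4 cells kept their direction and call under all of them. The other called members kept their direction and lost the call under some, given with each gene or, for the blocks, in the account of the replicate numbers, and with 2 or 3 libraries a group the number called depended on single libraries. Leaving out each library in turn, the members called ran from 1 to 3 in the CD4 and 1 to 4 in the CD8 comparison, and all genes called from 976 to 2051 and from 1475 to 2682. They ran from 126 to 443 between lineages in CD127-PD-1+ cells, from 378 to 764 in CD127+PD-1- cells and from 0 to 5 for the state by lineage difference. Between lineages, all genes called numbered 791 in CD127-PD-1+ and 1215 in CD127+PD-1- cells without a filter on low counts, 717 and 1192 by DESeq2, and 214 in CD127-PD-1+ cells in a fit of those groups only, beside 400 and 723 as reported. The state by lineage difference had 85 called genes without the filter and 60 by DESeq2, beside 1. Without the filter 1 member, Bcl2l11, was called between lineages in CD127+PD-1- cells. The cause of these changes was not tested.

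The rule used took numbers to pair the libraries only if every same-numbered pair correlated above 0.1, and neither numbering met it. Same-numbered libraries correlated in their deviations from group means at -0.21 to 0.32 by title number (15 pairs). By description number they correlated at 0.0011 to 0.33 (12 pairs, 10 of them over 0.1, median 0.15). Pairs of different description number had a median of -0.08 (33 pairs, 4 of them over 0.1). Of 10 libraries, 8 correlated best with a library of their own description number. The labels do not say whether these numbers mark a shared sort, and the main fit has no block. With the description number as a replicate block, 2 members were called in CD8 cells (Bcl2l1 at 0.65, adjusted p = 0.0510, and Pmaip1 at 0.58, adjusted p = 0.0803, were not) and 2 between lineages in CD127+PD-1- cells (Bcl2 and Bcl2l11, adjusted p = 0.0329 and 0.0450). With the title number as a replicate block, Bcl2 in CD4 cells was not called (adjusted p = 0.0565) and the state by lineage difference had 0 called genes. A fit of the compared groups only gives the state by lineage difference no separate value, since that uses all groups.

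Sign changes were limited to values that were not called. Bcl2l11 between lineages in CD127-PD-1+ cells, reported at 0.0011, took -0.0033 by DESeq2 size factors and by DESeq2, -0.032 by limma-voom, -0.0016 without mitochondrial genes, -0.021 in thinned counts, -0.063 and -0.22 with the title and description number as a block, and -0.34 to 0.27 without single libraries. In that comparison Bad took -0.10 in thinned counts and Bax -0.10 with the description number as a block, and without single libraries Bad ran from -0.076 to 0.32, Bax from -0.32 to 0.52 and Bcl2 from -1.05 to 0.25. In CD127+PD-1- cells Bbc3 took -0.0063 by limma-voom and ran from -0.10 to 0.29, and Bak1 from -0.39 to 0.042, without single libraries. Bcl2l11 in CD8 cells took 0.0017 with the description number as a block. Without single libraries, in CD4 cells Bbc3 ran from -0.75 to 0.17, Pmaip1 from -0.024 to 0.46 and Bax from -0.53 to 0.29. The state by lineage difference ran from -0.43 to 0.89 for Bcl2, -0.15 to 0.67 for Bax and -0.21 to 0.23 for Bak1.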
